A study of Mus musculus with 12 samples.

Results

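The inflammatory cytokines and colony-stimulating factors described here are Il1a, Il1b, Il33, Il6, Il11, Lif, Tnf, Csf1, Csf2 and Csf3. They were taken by gene symbol from a table of 36254 genes measured by mRNA sequencing, and all 10 were found in it. Each of the 10 passed the filter on low counts that left 23191 genes for testing. The 12 libraries come from mouse lung tissue in 4 groups of 3, and the sample names give C57 mice. Taurine and Proline are orthotopic lung tumours, grown inside the lung, treated with taurine or with proline. Model is the same kind of tumour without treatment, and Control is normal lung according to the series' description, although its tissue label names lung tumour as those of the other groups do. The sources used here do not give the tumour cell line, the doses, the duration and route of treatment or the age of the animals. Whether replicates came from separate animals is not stated, and a p-value then reflects no more than the spread among these libraries, which may be technical.

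Cytokines are secreted signals between cells, and those of inflammation act through a few receptor families. The interleukin-1 family, here Il1a, Il1b and Il33, signals through receptors that activate the transcription factor NF-kB. The interleukin-6 family, here Il6, Il11 and Lif, uses the shared receptor chain gp130, encoded by Il6st, and activates Stat3. Tnf acts through Tnfrsf1a and Tnfrsf1b and also activates NF-kB. Colony-stimulating factors direct the growth and survival of myeloid cells: Csf1 acts on macrophages, Csf3 on neutrophils and Csf2 on both. In lung tumours these factors are made by tumour cells, stroma and infiltrating myeloid cells, and RNA from whole tissue does not separate these sources.

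Messages of this class are known for short lives, set in part by AU-rich elements, repeats of the pentamer ATTTA in the 3′ untranslated region (UTR) to which proteins such as Zfp36 bind. In the GENCODE annotation of GRCm38, 9 of the 10 genes held at least 1 copy of the longer motif TATTTAT in the 3′ UTR of their principal transcript, all but Il33, against 27% of 20985 protein-coding genes. Csf2 carried 28.4 ATTTA per kb of 3′ UTR, a density that 0.0858% of genes reach. Tnf followed with 10.5, Csf3 with 8.97, Il1b with 8.71, Il11 with 8.38 and Il6 with 6 per kb. Il1a with 2.72, Lif with 2.2, Csf1 with 1.89 and Il33 with 1.79 per kb lay nearer to the median of all genes, 1.21. The window of 30 bases with the most ATTTA copies is shown for 5 densely marked genes and for Il33, in the sense direction with each ATTTA in capitals; matches in DNA letters are a description of sequence and not a measurement of message life.
Csf2, chr11:54247328-54247357, minus strand: ttttaaatATTTATTTATTTATTTATTTAt
Tnf, chr17:35199678-35199707, minus strand: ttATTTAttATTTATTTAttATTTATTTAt
Csf3, chr11:98702985-98703014, plus strand: atagtttATTTAtctctATTTAatATTTAt
Il1b, chr2:129364807-129364836, minus strand: aaccacttacctATTTATTTAtgtATTTAt
Il11, chr7:4773505-4773534, minus strand: tttaaaaccagatcttATTTATTTATTTAt
Il33, chr19:29959658-29959687, plus strand: atttttctcttttaacacATTTAacATTTA

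**Figure D1:**
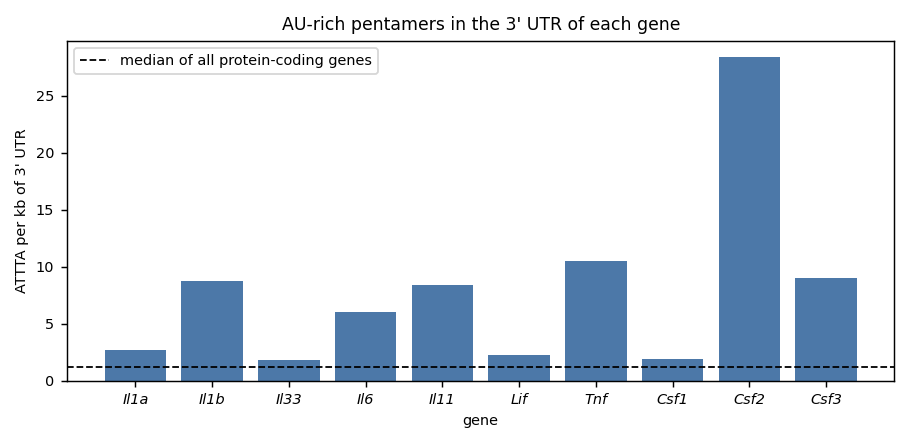
Copies of the pentamer ATTTA per kb of 3′ UTR (y axis) for each of the 10 genes (x axis), with the median of all protein-coding genes as a dashed line at 1.21. Csf2 stands highest at 28.4 per kb, and Il33, Csf1, Lif and Il1a sit lowest, between 1.79 and 2.72 per kb.

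Levels below are the authors' FPKM, fragments scaled to transcript length and to library total, which allows genes of different length to be compared. Fold changes are log2 ratios of scaled counts with their standard error (SE). A gene was called when edgeR's quasi-likelihood test gave it a Benjamini-Hochberg adjusted p under 0.05 over all 23191 genes. The libraries held 56542745 to 69456490 counts each. Some tumour libraries carried transcripts of other organs: the summed FPKM of 8 liver markers was 79.6 in Model replicate 1 and 99.3 in Model replicate 2, against at most 4.15 in the other tumour libraries. The sum of 8 kidney markers was 37.3 in Taurine replicate 1, 40.7 in Taurine replicate 2 and 41.9 in Model replicate 3, against at most 7.87 in the other tumour libraries. Skeletal muscle transcripts varied more: the sum of 7 muscle markers was 110, 36.9 and 1098 in Taurine, 3.64, 398 and 255 in Proline and 221, 58.6 and 18.9 in Model, against 5.18 to 6.45 in Control, and 4 of the 7 were called higher in Model than in Control. Proline replicate 1 carried transcripts of normal lung, with a sum of 9 alveolar type 2 markers of 378, against 13.1 to 36.2 in the other tumour libraries. Its sum of 7 club and ciliated cell markers was 287 and that of 9 endothelial markers 80.0, the highest of the tumour libraries for both. Results that turn on such tumour libraries are given without them too, and the part of these transcripts in the cytokine values was not tested. Defining genes of the lung epithelium were almost absent from the untreated tumours, with a summed FPKM of 9 alveolar type 2 markers of 13.1 to 19.5 in Model, against 12635 to 14648 in Control.

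Across the 12 libraries the 10 genes ran from high to barely detected. Il33 and Csf1 were the most abundant, at 16.4 to 57.6 FPKM and 6.49 to 37.5 FPKM. Il1b ranged from 0.973 to 18.9 FPKM. Lif, Csf3, Il11, Tnf and Il1a stayed at or below 6.24 FPKM in every library. Il6 never passed 0.442 FPKM, and its counts lay between 6 and 98 per library. Csf2 had 0 counts in 7 libraries.

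**Figure D2:**
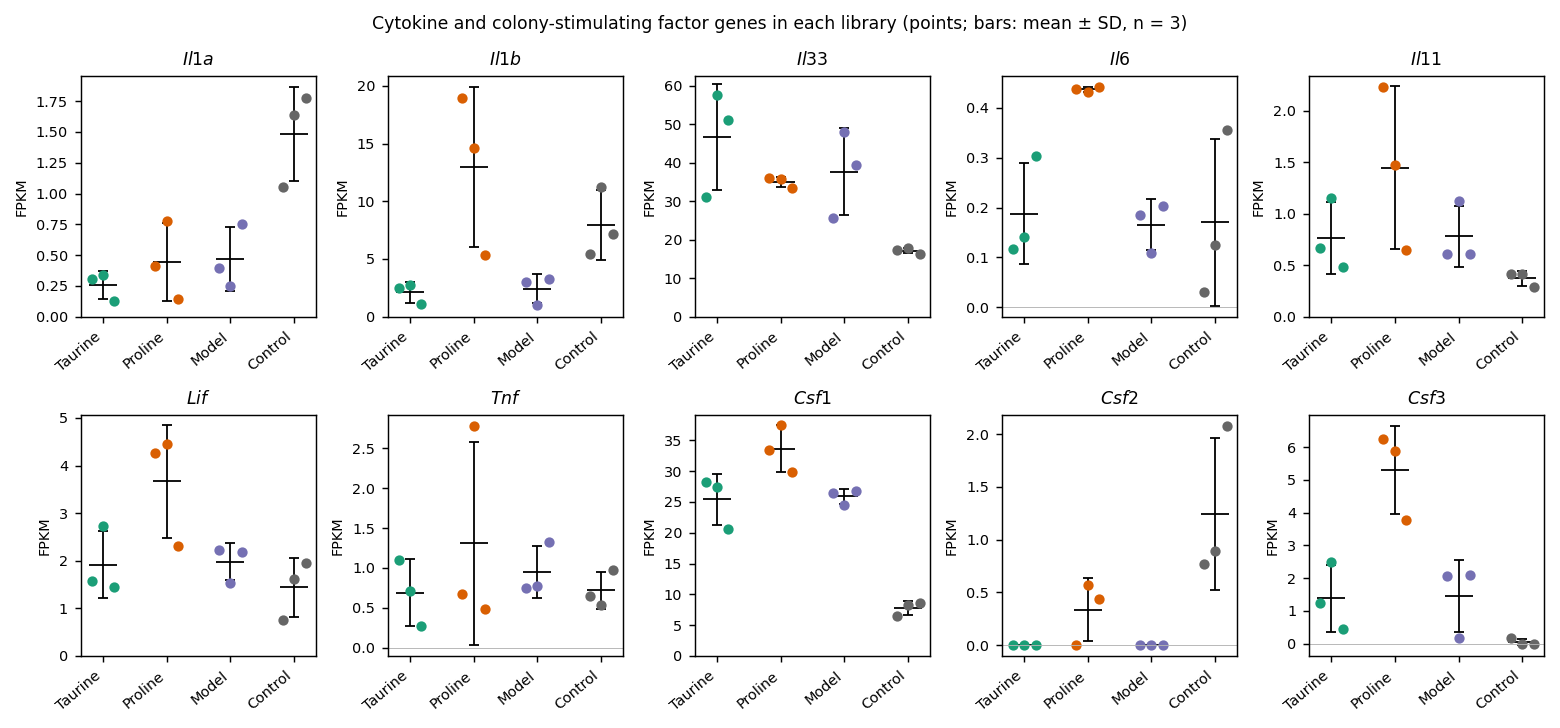
FPKM of each gene in every library (points) with the group mean, one panel per gene and groups in the order Taurine, Proline, Model and Control. Il1b reaches 5.37 to 18.9 FPKM in Proline, above every Taurine and Model library, and Csf1 is 20.6 or higher in every tumour library and at most 8.59 FPKM in Control.

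The first comparison sets the untreated tumour, Model, against normal lung, Control. Csf1, Csf3 and Il33 rose in the tumour, while Il1b, Il1a and Csf2 fell. The other 4 genes, Il6, Il11, Lif and Tnf, were not called. Calls in this comparison were common, since 58.1% of all genes tested passed, 28.8% higher and 29.3% lower, and 6 of 10 is near that background. Without overlap between the groups, 4 of the 10 were higher and 3 lower, where 35.4% of all genes tested were higher and 33.7% lower in that way, 69.1% together. The median log2 fold change of the 10 genes was 0.32, also with Csf2 at its bound, against −0.03 over all genes tested.

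Of the interleukin-1 family, Il33 moved opposite to Il1a and Il1b. Il33, an alarmin held in the nucleus and released from damaged cells, had 25.6, 48 and 39.5 FPKM in Model, against 17.4, 17.8 and 16.4 FPKM in Control. Every Model library lay above every Control library, and Il33 differed by 1.02 on the log2 scale (SE 0.24, adjusted p = 0.00375). Its receptor chain Il1rl1, also called ST2, rose further, with 8.02 ± 0.832 FPKM in Model and 0.719 ± 0.0501 FPKM in Control (SD, n = 3 each; log2 fold change 3.36, adjusted p = 1.1e-07). Il1b, the secreted fever cytokine that inflammatory caspases cut to its active form, had 3.04, 0.973 and 3.26 FPKM in Model, against 5.42, 11.3 and 7.15 FPKM in Control. The Model libraries were lower without overlap, at −1.81 on the log2 scale (SE 0.57, adjusted p = 0.0183). Il1a, which is active without cutting and stays mostly inside or on the cell, had 0.399, 0.249 and 0.752 FPKM in Model, against 1.05, 1.63 and 1.77 FPKM in Control. The groups did not overlap here either, and the log2 fold change was −1.76 (SE 0.63, adjusted p = 0.0322).

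The Il33 call held in every alternative run, while the calls of Il1a and Il1b were lost in some. Their direction held in all of these: with each library left out in turn, the log2 fold change ran from −2.11 to −1.43 for Il1b and from −2.31 to −1.45 for Il1a. The Il1b call was lost without Control replicate 2 (adjusted p = 0.0689) or without Model replicate 2 (adjusted p = 0.0549). The Il1a call was lost without Control replicate 2 (adjusted p = 0.0741), Control replicate 3 (0.0833), Model replicate 1 (0.0942) or Model replicate 2 (0.106), and with no filter on low counts (0.0518). Without both libraries that carried liver transcripts, the log2 fold change was −1.37 for Il1b (adjusted p = 0.196) and −1.06 for Il1a (adjusted p = 0.373), with 1 Model library left that is assumed to vary like the others.

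The interleukin-6 family and Tnf showed no called difference between tumour and normal lung. Il6, a driver of the acute phase response, had 0.185, 0.108 and 0.204 FPKM in Model, against 0.0304, 0.125 and 0.355 FPKM in Control (log2 fold change −0.11, 95% interval −1.69 to 1.47). The Model values sat inside the range of the Control values. Il11, a stromal and epithelial relative of Il6, had 0.604, 1.12 and 0.610 FPKM in Model, against 0.414, 0.416 and 0.290 FPKM in Control. All 3 Model libraries were above Control, yet the log2 fold change of 0.93 had an SE of 0.49 and an adjusted p of 0.128. Lif, named for its action on leukaemia cells, had 2.22, 1.53 and 2.19 FPKM in Model, against 0.756, 1.62 and 1.96 FPKM in Control (log2 fold change 0.35, adjusted p = 0.466). Tnf, an early cytokine of activated macrophages, had 0.746, 0.779 and 1.33 FPKM in Model, against 0.653, 0.533 and 0.975 FPKM in Control (log2 fold change 0.29, adjusted p = 0.734). For Lif and Tnf the groups overlapped.

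The colony-stimulating factors changed in both directions. Csf1, the main macrophage growth factor, had 26.4, 24.5 and 26.8 FPKM in Model, against 6.49, 8.26 and 8.59 FPKM in Control. The groups were far apart beside their spread, at 1.62 on the log2 scale (SE 0.14, adjusted p = 1.67e-06). Csf3, the neutrophil growth factor, had 237, 22 and 248 counts in Model, against 19, 0 and 0 counts in Control, which is 2.05, 0.173 and 2.10 FPKM against 0.166, 0 and 0 FPKM. Model replicate 2 was close to the highest Control library, and the log2 fold change was 4.52 (SE 1.35, adjusted p = 0.0139). Its size depended on Control replicate 1, the only Control library with a count: the log2 fold change was 3.94 without Control replicate 2 or 3, and without replicate 1 the Control group is at 0 and the fitted 10.42 is no bound. Csf2, a growth factor for granulocytes and macrophages that alveolar macrophages need in order to mature, had 0 counts in all 3 Model libraries, against 48, 58 and 133 counts in Control. Set against a floor of 3 counts over the group, Csf2 was at least 91.7-fold lower in Model (adjusted p = 0.00783). Without the libraries that carried liver transcripts the 1 Model library left was at 0 counts like the others, and the adjusted p was 0.0742.

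Marker genes of several cell types differed between these groups too. The summed FPKM of 10 macrophage markers was 652 to 713 in Model and 107 to 161 in Control. Of the 10 markers, 8 were called higher and 1, Cd14, was called lower. That of 8 alveolar macrophage markers was 34.3 to 49.2 in Model and 191 to 229 in Control, with 6 called lower and 2 higher. For 12 T and NK cell markers the sum was 3.27 to 12 in Model and 57.5 to 68.3 in Control, with 7 called lower. For 10 neutrophil markers the sums overlapped, at 39.2 to 95.6 in Model and 73.5 to 109 in Control, and none of the 9 tested was called, with 1 at an unadjusted p under 0.05. In bulk RNA, fewer cells of a type and less RNA per cell cannot be told apart, and the part of these cell types in the cytokine differences was not tested.

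Among the receptors of these cytokines, 5 of 16 receptor and antagonist genes rose, 7 fell and 4 were not called. The receptors that rose belonged mostly to the interleukin-1 family. Il1r1, the signalling receptor of Il1a and Il1b, had a log2 fold change of 1.89 (adjusted p = 1.94e-07), the accessory chain Il1rap one of 1.32 (adjusted p = 3.8e-05) and the decoy receptor Il1r2 one of 2.51 (adjusted p = 0.00235). Csf2rb2, the mouse beta chain specific to interleukin-3, rose by 1.14 (adjusted p = 8.55e-04). Those that fell included chains of the interleukin-6 family: Lifr by a log2 fold change of −2.85 (adjusted p = 4.49e-06), Il11ra1 by −2.57 (adjusted p = 4.3e-07) and the shared chain Il6st by −1.15 (adjusted p = 1.65e-06). Csf3r, the receptor of Csf3, fell by 1.26 on the log2 scale (adjusted p = 0.00427), and Csf2ra, the alpha chain for Csf2, fell by 0.78 (adjusted p = 0.0118). The Tnf receptor Tnfrsf1a had 36.7 ± 0.756 FPKM in Model and 46.1 ± 1.64 FPKM in Control (SD, n = 3 each). Tnfrsf1b had 6.98 ± 0.416 FPKM in Model and 9.36 ± 1.97 FPKM in Control, with overlapping groups. Csf1r, the receptor of Csf1, was not called (log2 fold change 0.37, adjusted p = 0.107), and neither was the interleukin-1 antagonist Il1rn (0.16).

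Of 23 other cytokines tested, 8 were lower in the tumour, 1 was higher and 14 were not called. Kitl, the mast cell and stem cell factor, had a log2 fold change of −1.19, the dendritic cell factor Flt3l one of −2.62, the death ligand Tnfsf10 one of −6.84 and the lymphocyte factor Il7 one of −2.71, while the Il6-family member Clcf1 had one of 0.37. Of 12 inflammatory chemokines, 6 were higher, 2 lower and 4 not called. The higher ones were led by Ccl2 (log2 fold change 5.42), Cxcl1 (4.50), Ccl7 (4.01) and Cxcl3 (5.25), which attract monocytes and neutrophils. Ccl5, a chemokine of T and NK cells, was lower (−3.45), and so was Ccl20.

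NF-kB and Stat3 response genes were split, with 11 of 22 lower, 4 higher and 7 not called. Icam1, an adhesion molecule for leukocytes, had 1.97 ± 0.364 FPKM in Model and 77.8 ± 8.93 FPKM in Control (SD, n = 3 each; log2 fold change −5.42, adjusted p = 6.01e-07). Traf1 (−4.11), Birc3 (−1.90) and the AP-1 subunit Junb (−1.63) were also lower. Saa3, an acute phase protein, rose by 4.65 on the log2 scale and the protease inhibitor Timp1 by 2.27, beside Nfkb2 (0.86) and Vcam1 (0.86).

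Among 9 genes that process or release interleukin-1 and Tnf, Adam17, the protease that sheds Tnf, rose by 0.77 (adjusted p = 5.8e-06), as did the DNA sensor Aim2 (1.12) and Casp8 (0.51), while the pore protein Gsdmd fell by 0.60 on the log2 scale. Of 7 regulators of cytokine message decay, 3 were lower and 3 higher. Zfp36, also called tristetraprolin, is known to bind AU-rich elements and to speed decay, and neither was measured here. Zfp36 had 8.42, 8.21 and 7.28 FPKM in Model, against 94.7, 114 and 81.8 FPKM in Control (log2 fold change −3.72, adjusted p = 2.92e-08). Its relative Zfp36l1 fell by 1.65 on the log2 scale and Zfp36l2 rose by 0.95. The stabilising protein Elavl1 rose by 0.38 and the RNase Zc3h12a by 0.75.

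Proline against Model sets the tumours treated with proline against untreated ones. No gene of the 23191 was called (0%) by edgeR, none of the 10 included, while 3106 genes (13.4%) had an unadjusted p under 0.05. Within that limit the cytokines lay mostly on the higher side: 8 of the 10 fold changes were positive, with a median of 0.92 (also with Csf2 at its bound) against 0 over all genes. Il1b, Il6, Lif, Csf1 and Csf3 were higher in all 3 Proline libraries than in any Model library, 5 of 10, where 7.9% of all genes tested did the same. At an unadjusted p under 0.05, 4 of the 10 stood higher, Il1b, Lif, Csf1 and Csf2, where 7.19% of all genes did. The genes and companion lists were chosen with earlier results of these data known. Such shares, here and in the comparisons below, therefore describe the lists and test nothing.

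Among the genes with counts in both groups, Il1b had the largest fold change. It read 18.9, 14.6 and 5.37 FPKM in Proline, against 3.04, 0.973 and 3.26 FPKM in Model. All 3 Proline libraries were above Model, replicate 3 by the least. The fold change was 5.44, or 2.44 on the log2 scale (SE 0.59, 95% interval 1.15 to 3.74), with a p of 0.00165 before adjustment and an adjusted p of 0.181. Without Proline replicate 3 the log2 fold change was 2.82 and passed (adjusted p = 0.0478), and DESeq2 on all libraries also called it (adjusted p = 6.66e-04). Without the Model libraries that carried liver transcripts it was 2.03 (adjusted p = 0.907, 1 Model library left), and 2.78 without those that carried kidney transcripts (adjusted p = 0.164). Il1a did not follow Il1b, with 0.415, 0.778 and 0.142 FPKM in Proline, inside and around the Model values (log2 fold change −0.05, adjusted p = 1). Il33 had 36.0, 35.7 and 33.5 FPKM in Proline, inside the Model range (log2 fold change −0.08, 95% interval −0.60 to 0.45).

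All 3 members of the interleukin-6 family had positive fold changes that were not called. Il6 had 0.439, 0.433 and 0.442 FPKM in Proline, against 0.185, 0.108 and 0.204 FPKM in Model. The groups did not overlap, but the counts behind them were low, 94, 89 and 98 in Proline and 38, 24 and 43 in Model (log2 fold change 1.38, SE 0.72, adjusted p = 0.431). Lif had 4.26, 4.44 and 2.30 FPKM in Proline, against 2.22, 1.53 and 2.19 FPKM in Model. Proline replicate 3 was just above the highest Model library, and the log2 fold change was 0.92 (SE 0.38, adjusted p = 0.337). Il11 had 2.23, 1.47 and 0.642 FPKM in Proline, with replicate 3 inside the Model range (log2 fold change 0.93, SE 0.49, adjusted p = 0.431). Tnf had 0.669, 2.78 and 0.482 FPKM in Proline, so that 1 library was high and the other 2 lay below every Model library (log2 fold change 0.48, adjusted p = 0.834; −0.69 without Proline replicate 2).

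Each of the 3 colony-stimulating factors had a positive fold change that was not called. Csf1 had 33.5, 37.5 and 29.9 FPKM in Proline, above all Model libraries, at 1.32-fold (log2 fold change 0.40, SE 0.13, 95% interval 0.11 to 0.70, adjusted p = 0.252). Csf3 had 6.24, 5.90 and 3.76 FPKM in Proline, against 2.05, 0.173 and 2.10 FPKM in Model. The lowest Proline library exceeded the highest Model library, while the spread in Model left the log2 fold change of 1.89 with an SE of 1.14 (adjusted p = 0.498). Csf2 had 0, 39 and 32 counts in Proline and 0 in every Model library, at least 23.3-fold higher against a floor of 3 counts over the group. It was not called by edgeR (adjusted p = 0.241) and was called by DESeq2 (adjusted p = 0.0332); 1 of the 3 Proline libraries was at 0 like Model.

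**Figure D3:**
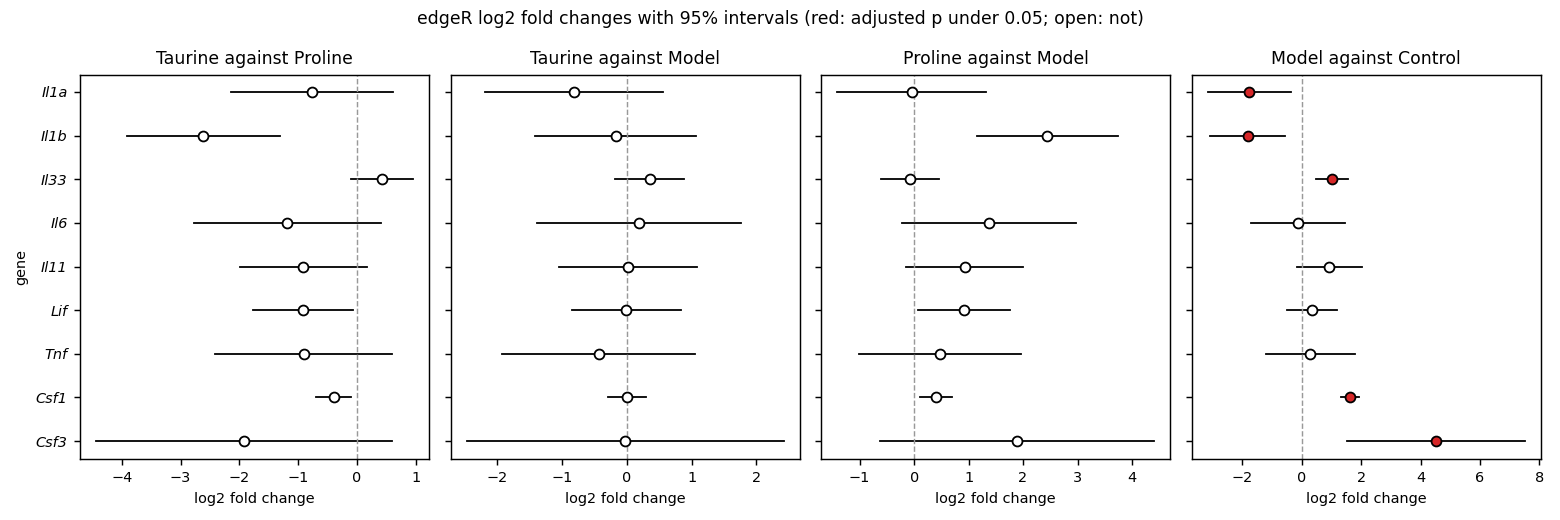
Log2 fold changes (x axis) with 95% intervals of 9 of the 10 genes (y axis) in 4 panels: Taurine against Proline, Taurine against Model, Proline against Model, and Model against Control. Csf2 is not drawn because its counts are 0 in whole groups; Il1b in Proline against Model sits at 2.44 with an interval of 1.15 to 3.74, and Csf1 in Taurine against Model at 0.01.

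Both comparisons so far use the same Model libraries, so a low Model value lowers the first fold change and raises the second. Since 5 genes stood above Model in every Proline library, the stretch of 250 bases before to 50 after the start site is shown for 4 of them, from RefSeq on GRCm38.p6. Promoter entries were found for 9 of the 10 genes, all but Csf3. Each is printed along its own gene, with matches in capitals. The motifs searched on both strands were the NF-kB site by its kappaB consensus, AP-1 as TGANTCA, C/EBP as TTGCNNAA, the cyclic AMP element as TGACGTCA and the TATA box as TATAAA. The Il6 window holds a kappaB match at −44 from the start, a C/EBP match at −128 and an AP-1 match at −249, the Lif window a kappaB match at −178 and an AP-1 match at −228, the Csf1 window a kappaB match at −154, and the Il1b window only a TATA box at −31.
Il1b, chr2:129371090-129371389, minus strand: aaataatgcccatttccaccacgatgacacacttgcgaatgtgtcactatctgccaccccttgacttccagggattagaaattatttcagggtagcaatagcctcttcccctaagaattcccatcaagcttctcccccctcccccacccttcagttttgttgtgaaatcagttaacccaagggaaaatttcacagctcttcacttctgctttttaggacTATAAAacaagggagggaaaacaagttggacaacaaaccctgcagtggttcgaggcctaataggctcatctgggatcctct
Il6, chr5:30012864-30013163, plus strand: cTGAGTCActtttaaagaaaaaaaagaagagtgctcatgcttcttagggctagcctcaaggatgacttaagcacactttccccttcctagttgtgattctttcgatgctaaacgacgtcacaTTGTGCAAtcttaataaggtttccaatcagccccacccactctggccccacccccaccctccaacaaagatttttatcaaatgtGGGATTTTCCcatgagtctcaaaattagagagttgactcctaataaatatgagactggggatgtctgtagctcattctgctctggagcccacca
Lif, chr11:4257318-4257617, plus strand: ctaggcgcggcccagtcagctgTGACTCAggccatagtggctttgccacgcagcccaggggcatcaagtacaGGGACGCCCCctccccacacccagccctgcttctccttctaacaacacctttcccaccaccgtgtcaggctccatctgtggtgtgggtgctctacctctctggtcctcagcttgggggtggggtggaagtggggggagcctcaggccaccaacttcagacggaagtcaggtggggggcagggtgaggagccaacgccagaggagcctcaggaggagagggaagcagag
Csf1, chr3:107760420-107760719, minus strand: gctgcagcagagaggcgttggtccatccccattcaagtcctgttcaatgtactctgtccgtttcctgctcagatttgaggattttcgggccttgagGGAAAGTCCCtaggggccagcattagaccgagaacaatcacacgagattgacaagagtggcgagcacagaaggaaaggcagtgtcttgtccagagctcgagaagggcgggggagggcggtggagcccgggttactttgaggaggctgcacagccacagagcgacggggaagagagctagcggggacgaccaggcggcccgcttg
The kappaB consensus was found in Il6, Lif and Csf1, 3 of the 9 genes with an entry, and in 8.46% of 32851 promoter windows. AP-1 matches were in 4 of the 9, Il1a, Il6, Il11 and Lif, and in 7.81% of windows. TATA boxes were in 4 of the 9, Il1a, Il1b, Il33 and Tnf, and in 13.6% of windows. C/EBP matches were in Il6, Il33 and Csf2 and in 10.8% of windows. The 9 genes had 11 windows, since Il11 and Il33 had 2 each and were counted with a match in either. The percentages are per single window, so the gene counts had more room to match. A match is a stretch of letters in a window and says nothing of whether a factor was bound there.

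Response genes and chemokines in the Proline tumours lay on the higher side too, with none called. Of 22 NF-kB and Stat3 response genes, 21 had a positive fold change, with a median of 0.54 against 0 over all genes. At an unadjusted p under 0.05, 14 stood higher, where 7.19% of all genes tested did. Genes of a list were read in the same libraries, so their signs are not independent of each other. Junb and Socs3 are named here because of their values. Junb had 42.8 ± 3.21 FPKM in Proline and 23.0 ± 4.21 FPKM in Model (SD, n = 3 each; log2 fold change 0.92, adjusted p = 0.113). Socs3, the feedback inhibitor that Stat3 induces, had 33.3 ± 4.67 FPKM in Proline and 21.8 ± 1.63 FPKM in Model (0.64, adjusted p = 0.124). All 12 chemokines had a positive fold change, with a median of 1.34. At an unadjusted p under 0.05, 6 stood higher, where 7.19% of all genes did. The summed chemokine FPKM was 260, 305 and 142 in Proline, against 104, 69.3 and 123 in Model. Ccl2, likewise named for its values, had 114, 125 and 67.3 FPKM in Proline, against 44.0, 37.8 and 57.7 FPKM in Model (log2 fold change 1.16, adjusted p = 0.215).

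Of 16 receptor and antagonist genes, 11 had a positive fold change in Proline, with a median of 0.21, and none was called. Il1rl1, the Il33 receptor, had 16.2, 19.4 and 10.3 FPKM in Proline, against 8.84, 8.03 and 7.17 FPKM in Model (log2 fold change 0.96, adjusted p = 0.123). Il1rn, the antagonist of Il1a and Il1b, had 2.72, 3.69 and 1.29 FPKM in Proline, against 1.03, 0.496 and 0.898 FPKM in Model (1.69, adjusted p = 0.215). Both were higher in every Proline library, with replicate 3 the lowest. Csf3r (1.0, adjusted p = 0.229) and Csf2ra (0.82, adjusted p = 0.208) had positive fold changes, while Lifr had a negative one (−0.82, adjusted p = 0.238). Of the other lists, 22 of 23 other cytokines (median 0.51), 9 of 9 processing genes (median 0.30) and 7 of 7 decay regulators (median 0.16) had positive fold changes. The median over all genes was 0.

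**Figure D4:**
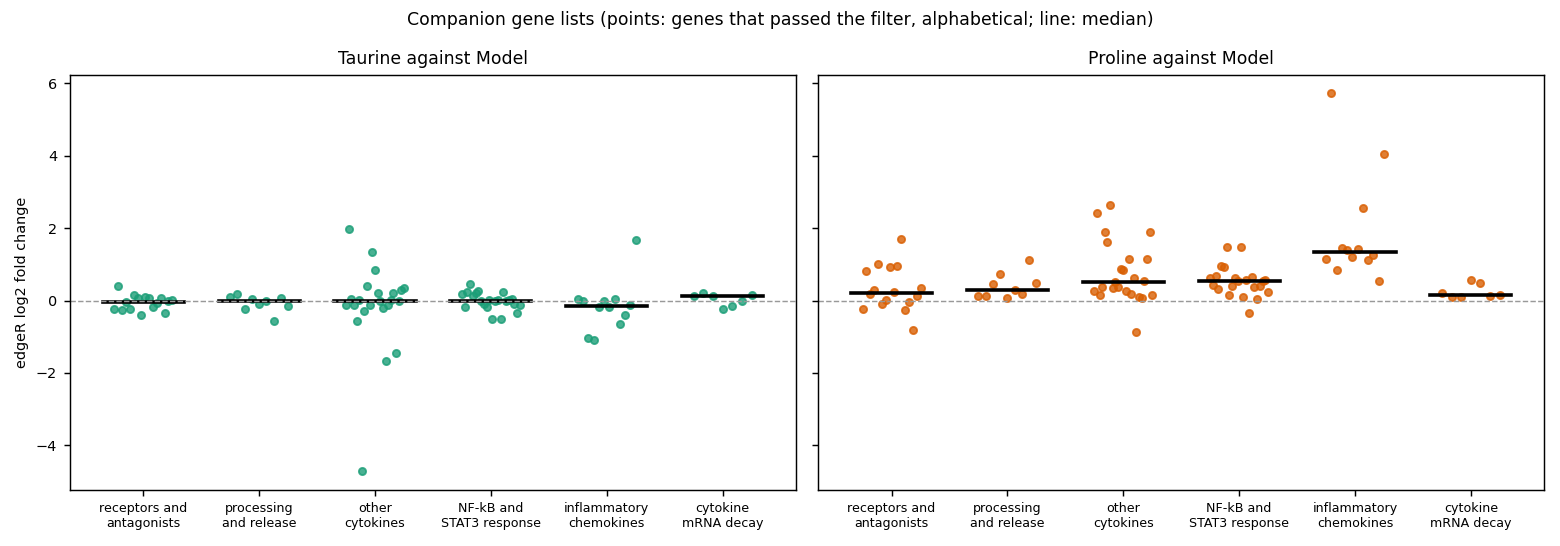
Log2 fold change (y axis) of each gene that passed the filter (points, with the list's median as a line) in 6 companion lists (x axis), for Taurine against Model on the left and Proline against Model on the right. The medians lie between −0.14 and 0.12 in Taurine against Model, whereas in Proline against Model all 12 chemokines lie above 0, with a median of 1.34; fitted values of genes at 0 counts in a group depend on the prior count.

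The sums of neutrophil markers and of T and NK cell markers were above every Model library in 2 of the Proline libraries. The summed FPKM of 10 neutrophil markers was 179, 159 and 37.3 in Proline, against 95.6, 39.2 and 55.8 in Model. S100a8 and S100a9 made up most of it, with 47.8 and 102 FPKM in Proline replicate 1. Of the 9 tested, 6 had a positive fold change, 2 of them with an unadjusted p under 0.05. Ltf, Ngp and Camp had lower means in Proline, at 1.19, 0.949 and 0.177 FPKM against 2.35, 2.59 and 0.324 FPKM in Model. Elane was at 0 in every Proline library. The summed FPKM of 12 T and NK cell markers was 39.7, 26.9 and 6.50 in Proline, against 12, 4.85 and 3.27 in Model, with 11 of 12 fold changes positive. Proline replicate 3, low in both sums, was also the lowest Proline library for every cytokine but Il6 and Csf2, those without a higher level in Proline included. It still exceeded every Model library for Il1b, Il6, Lif, Csf1 and Csf3. Proline replicate 1 was also the library with lung transcripts: of 9 alveolar type 2 markers, 7 stood higher in Proline at an unadjusted p under 0.05, with a median log2 fold change of 5.64. Without that library the log2 fold change in Proline against Model was 2.05 for Il1b (adjusted p = 0.318), 1.74 for Csf3, 1.36 for Il6, 0.78 for Lif and 0.39 for Csf1. The macrophage sums overlapped, at 557, 691 and 662 in Proline and 713, 705 and 652 in Model. The B and plasma cell sums overlapped too, at 9.12, 9.37 and 3.44 in Proline and 7.85, 6.30 and 4.33 in Model. The part of these cell types in the cytokine values was not tested.

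**Figure D5:**
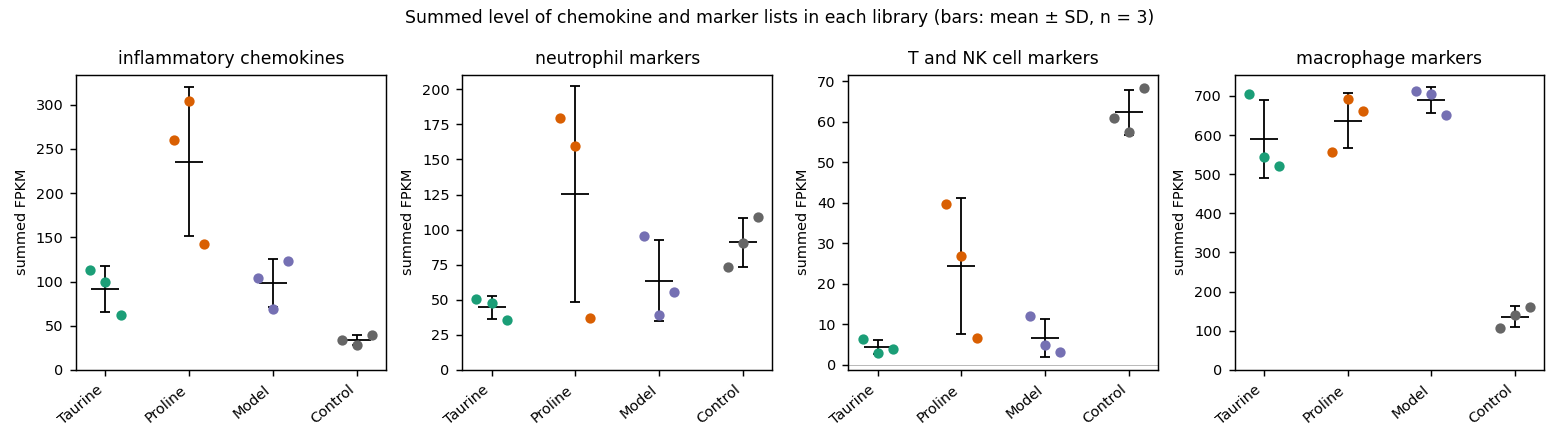
Summed FPKM (y axis) of inflammatory chemokines and of neutrophil, T and NK cell, and macrophage markers in each library (points, with mean ± SD, n = 3), groups in the order Taurine, Proline, Model and Control. In Proline the neutrophil sum is 179, 159 and 37.3, so replicate 3 stands apart from the other 2 libraries, and the macrophage sums of all tumour groups lie between 521 and 713, above 107 to 161 in Control.

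Taurine against Model asks the same of taurine treatment, and here no cytokine differed beyond the spread between libraries. No gene was called (0%) by edgeR, while 1574 genes (6.79%) had an unadjusted p under 0.05 and DESeq2 called 88. None of the 10 cytokines was among either set. The groups overlapped for every one of the 10 that had counts, where 12.1% of all genes tested did not overlap. The median log2 fold change of the 10 was −0.00 (−0.01 without Csf2), and it was 0.00 over all genes.

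The narrowest interval belonged to Csf1, which had 28.2, 27.3 and 20.6 FPKM in Taurine, against 26.4, 24.5 and 26.8 FPKM in Model (log2 fold change 0.01, 95% interval −0.29 to 0.30). Il33 had 31.2, 57.6 and 51.2 FPKM in Taurine, the highest group mean of the 4 at 46.7 ± 13.7 FPKM (SD, n = 3), with a log2 fold change of 0.35 (95% interval −0.18 to 0.88). Il1b had 2.51, 2.74 and 1.08 FPKM in Taurine (log2 fold change −0.17, 95% interval −1.41 to 1.06). Its Taurine values lay inside the Model range.

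The other genes gave wide intervals. Lif had 1.57, 2.73 and 1.45 FPKM in Taurine (log2 fold change −0.01), Il11 had 0.662, 1.15 and 0.480 FPKM (0.02) and Il6 had 0.117, 0.142 and 0.303 FPKM (0.19). Tnf had 1.10, 0.710 and 0.269 FPKM (−0.43) and Il1a had 0.307, 0.339 and 0.129 FPKM (−0.81, 95% interval −2.19 to 0.56). For Csf3, with 1.23, 2.48 and 0.460 FPKM in Taurine, the interval ran from −2.47 to 2.42, so that a change of several fold would not have been detectable. Csf2 had 0 counts in all 3 Taurine and all 3 Model libraries, which allows at most 3 counts over a group, or 0.015 CPM in Taurine. The companion lists had medians near 0, between −0.14 for chemokines (−0.17 without Ccl20, which had 0 counts in both groups) and 0.12 for decay regulators, with none of their genes called. Immune cell markers leaned lower in Taurine, with none called. The median was −0.78 for neutrophil markers (9 of 9 negative) and −1.58 for T and NK cell markers (7 of 12). It was −1.28 for B and plasma cell markers (6 of 6) and −0.21 for macrophage markers (9 of 10). Their part in the cytokine values was not tested.

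Taurine against Proline compares the 2 treatments directly. Of all genes tested, 10 were called (0.0431%), none of them among the 10 cytokines. Of the cytokine fold changes, 9 of 10 were negative, meaning lower in Taurine, and the median was −0.92. Il1b, Il6, Csf1 and Csf3 were lower in every Taurine library than in any Proline library, 4 of 10, where 7.9% of all genes tested did the same. These values share the Proline libraries with the comparison above and are not a separate support for it.

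Among the genes with counts in both groups, Il1b had the largest fold change, with 2.51, 2.74 and 1.08 FPKM in Taurine, against 18.9, 14.6 and 5.37 FPKM in Proline (log2 fold change −2.62, SE 0.59, adjusted p = 0.119). It passed without Proline replicate 3 (−2.99, adjusted p = 0.0358) and in DESeq2 (adjusted p = 1.82e-04). Csf3 had a log2 fold change of −1.92 (adjusted p = 0.481), Il6 one of −1.19 (adjusted p = 0.489) and Csf1 one of −0.40 (adjusted p = 0.222). Lif (−0.93), Il11 (−0.91), Tnf (−0.91) and Il1a (−0.77) were negative with overlapping groups. Csf2, at 0 counts in Taurine and 0, 39 and 32 counts in Proline, was at least 23.5-fold lower in Taurine; edgeR did not call it (adjusted p = 0.2) and DESeq2 did (adjusted p = 0.0253). Il33 alone had a positive value (0.43, 95% interval −0.10 to 0.95). The neutrophil sum was 50.8, 47.9 and 35.3 FPKM in Taurine, against 179, 159 and 37.3 FPKM in Proline, with all 9 tested markers negative. The T and NK cell sum was 6.34, 2.95 and 3.93 FPKM in Taurine, against 39.7, 26.9 and 6.50 FPKM in Proline. Of its 12 markers 11 were negative, with a median of −2.81 and none called. Alveolar type 2 markers had a median of −4.44, and without Proline replicate 1, which carried most of them, Il1b was at −2.22 (adjusted p = 0.225). The part of these cell types in the cytokine values was not tested.

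The groups can also be set in the order of their mean level. Csf1 averaged 25.4 ± 4.15 FPKM in Taurine, 33.6 ± 3.81 in Proline, 25.9 ± 1.21 in Model and 7.78 ± 1.13 in Control (SD, n = 3 each); Proline stood highest without overlap, Model and Taurine overlapped, and Control was lowest. Csf3 had the same order of groups, with 1.39 ± 1.02 FPKM in Taurine, 5.30 ± 1.34 in Proline, 1.44 ± 1.10 in Model and 0.0553 ± 0.0958 in Control. The means of Lif and Il11 ran in that order too, but Lif in Taurine and in Model overlapped Control, and neither gene was called in Model against Control.

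Il1b had another order, averaging 2.11 ± 0.903 FPKM in Taurine, 13.0 ± 6.94 in Proline, 2.42 ± 1.26 in Model and 7.95 ± 3.0 in Control. Proline was highest, then Control, whose values overlapped those of Proline, and Model and Taurine followed, overlapping each other. Il33 averaged 46.7 ± 13.7 FPKM in Taurine, 35.1 ± 1.35 in Proline, 37.7 ± 11.3 in Model and 17.2 ± 0.753 in Control, and its tumour groups all overlapped. Il1a was highest in Control and its 3 tumour groups overlapped, and for Tnf all 4 groups overlapped. Il6 averaged 0.438 ± 0.00475 FPKM in Proline, above 0.187 ± 0.101 in Taurine, 0.166 ± 0.0505 in Model and 0.170 ± 0.167 in Control, which overlapped among themselves.

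Across the 9 tumour libraries, the genes whose levels ran most like each cytokine were found by Pearson's correlation of log2(CPM + 1), as a description. Each is the best of 15063 candidate genes over only 9 libraries that share 3 treatments, so high values arise by selection. Il1b ran closest to the NF-kB subunit gene Relb (r = 0.982), the arginase gene Arg2 (0.981) and the endotoxin co-receptor gene Cd14 (0.976). Csf1 ran closest to Atad3a (0.989), the chemokine Ccl2 (0.978) and A530064D06Rik (0.973). The genes closest to Csf3 were Nop9 (0.967), Rrp36 (0.961) and the neutrophil chemokine Cxcl3 (0.958). Lif ran closest to the kinase gene Map2k1 (0.971), Thbs1 and Adam8 (0.961), and Il11 to Rap1gap (0.952), Aldoc and Lbh (0.932). For Il33 the closest was Dnajc17 (0.916), for Il1a it was Nanp (0.916), and for Tnf an unnamed gene reached 0.907. Il6 and Csf2 were under 1 CPM on average and were not ranked.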

How the data were processed

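The authors deposited a table of raw counts per gene and library, whole numbers per the file headers, and FPKM values that the authors derived by scaling to gene length and library total. Per the submitters' processing notes the build is mm10. No aligner, counter or strand setting is given in the sources used here. Qiagen RNeasy RNA was made into SMARTer mRNA libraries, per the labels' protocols. Gene starts and ends in the table were both those of the GENCODE M21 annotation for 656 of 33734 gene IDs and for 0 of the 10 genes, so table positions were not used; printed sequences come from RefSeq promoters (GRCm38.p6) and GENCODE M21 transcripts, taking the principal transcript by APPRIS and then the one with the longest 3′ UTR.

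Counts were tested with edgeR 4.0.16 (R 4.3.3; TMM scaling, filterByExpr, quasi-likelihood F test, two-sided) in 1 fit of all 12 libraries with group as the only term, and adjusted by Benjamini-Hochberg over 23191 genes at a threshold of 0.05. The common biological coefficient of variation was 0.437. SE is the log2 fold change over the square root of F, and intervals are 95%. DESeq2 1.42.0, limma 3.58.1 on log2(FPKM + 1), other scalings, no filter and leaving out libraries were alternatives. The fit was also run on simulated counts with known changes in Proline only, placed in genes that were not near the floor. That run was not set up for groups without a count or for a comparison in which most genes differ. Floors of 3 counts cover counting error only.

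The genes and companion lists were chosen with earlier results of these data known. All 10 genes are given in every comparison. From a companion list, at most 4 called genes per direction with the smallest p are named, and direct receptors and Il1rn in any comparison. Junb, Socs3 and Ccl2 in Proline against Model depart from this rule, since they were not called and were picked for their values. Genes most like a cytokine are the 3 with the highest correlation among those of at least 1 CPM. Replicate numbers follow the order of the samples and pair nothing.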

Additional observations from a re-analysis of the deposited data

How the results depend on the processing

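No paired analysis was possible because the labels give no replicate numbers. In Model against Control, 6 of the 10 genes were called, 6 again under median-ratio and upper-quartile scaling, DESeq2, limma with either pseudocount and a fit of both groups only, 5 with no low-count filter, and 4 to 6 when each library was left out in turn. Il33, Csf1 and Csf3 were called in all of these and in both settings below. Leaving out the Model libraries with liver transcripts (chosen after seeing the data) left 3 calls. In Proline against Model and in Taurine against Proline, 0 of the 10 were called by edgeR and 2 each by DESeq2 (Il1b and Csf2). The share of all genes that DESeq2 called there is not given here, so these DESeq2 calls have no background beside them. With each library left out, 0 to 1 were called by edgeR, the 1 being Il1b without Proline replicate 3. In Taurine against Model none was called in any setting run. Il1b kept its direction in Proline against Model in every setting, from 1.96 to 2.82.

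Values near 0 changed sign, and the cause was not tested. Taurine against Model: Csf1 was −0.0034 under upper-quartile scaling; limma with pseudocounts of 1 and 0.1 gave Csf1 −0.0393 and −0.0412, Il11 −0.0172 and −0.0484, and Csf3 0.0108 and 0.19. Without the liver-marker libraries Csf1 was −0.0787 and Il6 −0.14; without the kidney-marker libraries (also chosen after seeing the data) Csf1 was −0.24 and Il11 −0.76. Model against Control: Il6 was 0.0031 and 0.14 in limma with those pseudocounts and 0.22 without the liver-marker libraries, and Tnf −0.0614 without the kidney-marker ones. Proline against Model: Tnf was −0.0103 without the liver-marker libraries, and without the kidney-marker ones Il1a was 0.54 and Il33 0.014.

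With each library left out in turn, Model against Control ran from −0.60 to 0.99 for Il6 and from −0.0486 to 0.56 for Tnf. Taurine against Model ran from −0.56 to 0.14 for Il1b, −0.35 to 0.44 for Il6, −0.40 to 0.35 for Il11, −0.36 to 0.15 for Lif, −0.0626 to 0.13 for Csf1 and −0.75 to 0.39 for Csf3. Proline against Model ran from −0.70 to 0.53 for Il1a, −0.30 to 0.11 for Il33 and −0.69 to 0.87 for Tnf. Taurine against Proline ran from −1.39 to 0.26 for Tnf. Il6 and Csf2 had at most 98 and 133 counts per library; depth was not tested as a limit.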
